A study of Homo sapiens with 14 samples.

Results

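The comparison described here is the response of LNCaP cells carrying an shRNA against FoxA1 (shFoxA1) to the synthetic androgen R1881. It rests on 2 of the 14 arrays of the series, chosen by their titles: the shFoxA1 array labelled R1881 and the shFoxA1 array labelled hormone-deprived. The pair of arrays with the same media in LNCaP carrying a control shRNA (shCtrl) is the reference for which responses were lost, kept or gained. LNCaP is an androgen-sensitive prostate cancer line, and the study asked what FoxA1 does in prostate cancer cells, including what it does without the androgen receptor.

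Per the labels' protocol, which is worded alike for all 8 LNCaP shRNA arrays, cells of both kinds spent 3 days in charcoal-stripped medium and were then given 1 nM R1881 for 24 hours before total RNA was taken. The title marks the hormone-deprived arrays, which are taken here as stripped medium without R1881. Another 2 shFoxA1 and 2 shCtrl arrays are numbered replicates whose titles name no medium, and the descriptions number the R1881 arrays as the third replicate. The labels do not say whether each shRNA line was a clone or a pool. Each side of the response is 1 array, so no test could be made, no value below carries a p-value, and the medium cannot be told apart from anything else that set those arrays apart. Differences are on the log2 scale and run R1881 minus hormone-deprived for a response, and shFoxA1 minus shCtrl for a level.

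The androgen receptor is a transcription factor that enters the nucleus when bound by androgen and binds DNA at androgen response elements, often far from the genes it controls. FoxA1 is a pioneer factor of the forkhead family, which binds closed chromatin and opens it for other factors, among them the androgen receptor. Known androgen-activated genes in prostate cells include the kallikrein KLK3, which encodes prostate-specific antigen, and the co-chaperone FKBP5. Known androgen-repressed genes include the UGT2B enzymes, which join glucuronic acid to androgens and so inactivate them.

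The promoters of the kallikreins and of the UGT2B genes, which respond to androgen in opposite directions, are shown for their sequence around the start site (RefSeq, GRCh38.p14, 5′ to 3′ on the gene's strand, from 250 bases before the annotated start to 50 bases from it on). In the KLK3 window (chr19:50854665-50854964, + strand) and the KLK2 window (chr19:50873189-50873488, + strand), capitals mark the androgen response element known from KLK3, found as GAACANNNAGTGCT on either strand, with the AGAACA that overlaps its start in KLK3:
KLK3: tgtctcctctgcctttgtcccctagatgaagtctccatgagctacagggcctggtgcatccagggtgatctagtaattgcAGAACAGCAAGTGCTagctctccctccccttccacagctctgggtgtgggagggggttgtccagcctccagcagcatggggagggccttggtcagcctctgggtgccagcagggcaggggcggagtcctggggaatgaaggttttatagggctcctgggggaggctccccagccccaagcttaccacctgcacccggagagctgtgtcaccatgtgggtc
KLK2: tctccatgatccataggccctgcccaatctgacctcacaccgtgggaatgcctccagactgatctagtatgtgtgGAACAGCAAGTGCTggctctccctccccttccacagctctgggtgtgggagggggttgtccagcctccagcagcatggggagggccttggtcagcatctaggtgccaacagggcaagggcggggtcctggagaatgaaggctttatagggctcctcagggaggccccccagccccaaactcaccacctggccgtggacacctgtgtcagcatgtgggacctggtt
Over the 15 bases of this element, AGAACAGCAAGTGCT in KLK3, KLK2 differed by 1 substitution, A1G, counted from the 5′ end of the element. It began at position -170 from the start site in KLK3. The searched letters GAACANNNAGTGCT were in 15 of 35116 windows (0.0427%), and AGAACA on either strand was in 14.8% of them.

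In the windows of UGT2B15 (chr4:68670603-68670902, - strand), UGT2B11 (chr4:69214699-69214998, - strand) and UGT2B10 (chr4:68815744-68816043, + strand), capitals mark the forkhead core TGTTTA, here on the opposite strand as TAAACA, and in UGT2B15 also AGAACA:
UGT2B15: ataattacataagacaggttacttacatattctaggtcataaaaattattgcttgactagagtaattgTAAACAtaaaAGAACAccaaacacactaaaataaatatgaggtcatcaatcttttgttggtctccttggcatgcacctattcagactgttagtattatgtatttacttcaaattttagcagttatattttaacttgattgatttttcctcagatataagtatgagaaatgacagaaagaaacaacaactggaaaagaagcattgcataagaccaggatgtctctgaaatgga
UGT2B11: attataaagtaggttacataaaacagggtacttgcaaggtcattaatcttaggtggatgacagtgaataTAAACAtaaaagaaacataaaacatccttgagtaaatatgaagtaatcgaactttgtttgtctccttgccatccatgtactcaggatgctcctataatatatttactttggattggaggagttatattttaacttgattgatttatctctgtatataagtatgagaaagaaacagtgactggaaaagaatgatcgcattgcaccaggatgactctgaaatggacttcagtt
UGT2B10: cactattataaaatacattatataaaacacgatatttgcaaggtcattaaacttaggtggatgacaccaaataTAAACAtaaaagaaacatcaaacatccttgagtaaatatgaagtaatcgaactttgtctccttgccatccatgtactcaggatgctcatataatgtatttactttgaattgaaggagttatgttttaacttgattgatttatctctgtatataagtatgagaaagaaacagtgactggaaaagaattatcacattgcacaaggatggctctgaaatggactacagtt
The stretch TAAACATAAAAG, 12 bases, was the longest shared by these 3 windows and that of UGT2B7. TGTTTA on either strand was in 12.3% of all windows and in 8.24% of the windows of the genes tested. By the classes of response defined below, its share was 13.3% of windows of genes kept lower with R1881 and 10.9% of those kept higher, 13.4% of gained lower and 10.3% of gained higher, and 8.33% of lost lower and 12% of lost higher. A match of letters is a description of the window and not a binding site.

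Of 20044 named genes, 12371 had a probe detected (detection p below 0.05) on at least 1 of the 4 arrays and are the genes tested. A gene counted as responding when it differed at least 2-fold and was detected on the brighter array. In shFoxA1 cells R1881 went with a level at least 2-fold higher for 140 genes (1.13%) and at least 2-fold lower for 197 (1.59%), against 169 (1.37%) higher and 156 (1.26%) lower in shCtrl cells. Arrays of 1 kind also differed. The numbered shFoxA1 replicates were at least 2-fold apart for 323 genes (2.61%), beside 337 responding genes (2.72%) in shFoxA1 cells, and the numbered shCtrl replicates for 189 (1.53%), beside 325 responding genes (2.63%) in shCtrl cells. The response had the same sign in both lines for 311 of those 337 genes, and for 7964 of all 12371 genes tested (64.4%). Across genes, which are not independent, the 2 responses correlated with Pearson's r of 0.515 (Spearman's rho 0.431, n = 12371), and they share no array. When arrays were only scaled to one median, shCtrl had 682 genes higher and 106 lower (86.5% on the higher side, against 52% in the values used here), and the median response of all genes in shCtrl cells moved to 0.31.

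Depth and line identity were as follows. Mean intensity was 167 on the shFoxA1 R1881 array and 157 on the shFoxA1 hormone-deprived array, against 285 on the shCtrl R1881 array, the brightest of the 8, and 190 on the shCtrl hormone-deprived array. Of 47316 probes, 18740 to 18959 were detected on the shFoxA1 pair and 19647 to 20174 on the shCtrl pair. All 8 LNCaP line markers were detected on both shFoxA1 arrays. Of the 5 basal markers, ITGA6 was detected on each of the 4 arrays and KRT5, KRT14, KRT15 and NGFR on none. Of 9 fibroblast markers, 0 to 3 were detected. Of the 10 leukocyte and endothelial markers, 5 were detected on each shFoxA1 array. The shCtrl R1881 array had 3 and the shCtrl hormone-deprived array 4. CD68, HLA-DRA and VWF were detected on all 4 arrays, CD68 at a log2 intensity of 9.05 to 9.45. PTPRC, CD3E, CDH5 and KDR were detected on none. FOXA1 itself, read by 1 probe (ILMN_1766650), had a log2 intensity of 10.92 with R1881 and 11.37 without it in shFoxA1 cells, against 11.91 and 12.11 in shCtrl cells. It was thus lower in shFoxA1 cells in both media, and its own responses were -0.45 and -0.20. In these bulk samples, fewer cells expressing a gene and less RNA per cell cannot be told apart.

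Responses were sorted by the pair of differences. A response was kept when it reached 2-fold in the same direction in both lines, lost when it reached 2-fold in shCtrl and stayed under 1.5-fold in shFoxA1, and gained in the mirror case. Kept responses (115, 0.93% of genes tested) numbered 42 higher with R1881 (0.34%) and 73 lower (0.59%). The 42 were 30% of the shFoxA1 genes that were higher and 24.9% of the shCtrl ones, and the 73 were 37.1% and 46.8% of the lower ones. Lost responses (133, 1.08%) numbered 97 higher (0.784%) and 36 lower (0.291%), and gained ones (121, 0.978%) 61 higher (0.493%) and 60 lower (0.485%). A further 100 genes (0.808%) reached 2-fold in shFoxA1 alone and 76 (0.614%) in shCtrl alone with the other line between 1.5-fold and 2-fold, or at least 1.5-fold the other way, and 1 gene (0.00808%), TRIM49C, went opposite ways. Under median scaling the lost higher genes numbered 460. The cause of that move was not tested. No difference between the 2 responses was tested.

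**Figure D1:**
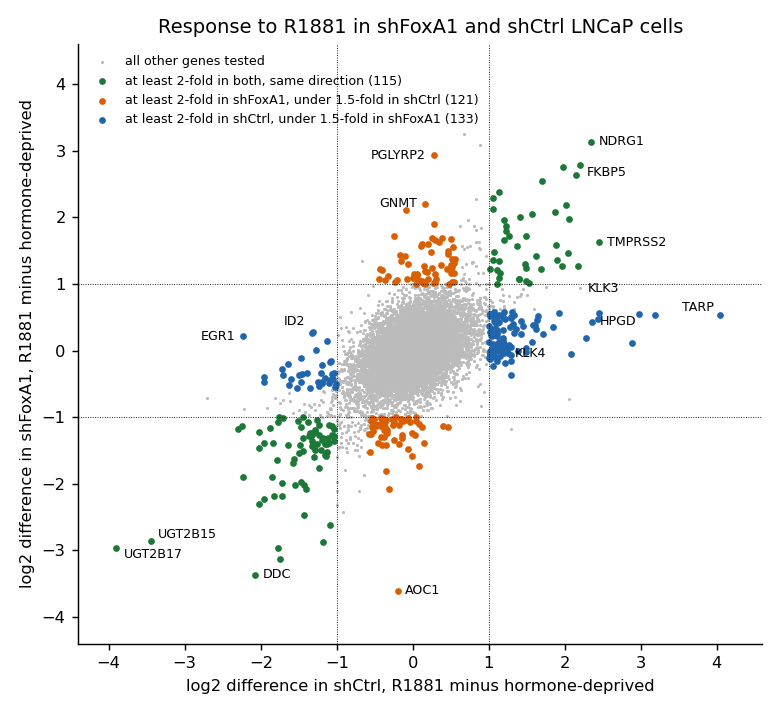
Log2 difference, R1881 minus hormone-deprived, in shFoxA1 (vertical) and shCtrl (horizontal) for 12371 genes, 1 array a side, with dotted lines at 2-fold. The 115 kept genes lie in the upper right and lower left corners, the 121 gained genes lie above and below the centre, and the 133 lost genes lie to its right and left.

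Androgen-activated genes were higher with R1881 in shFoxA1 cells, with a smaller median than in shCtrl cells. Of 38 tested members, 13 were at least 2-fold higher and 0 lower in shFoxA1 cells, against 20 higher and 0 lower in shCtrl cells. The median response was 0.52 in shFoxA1 and 1.05 in shCtrl, beside medians over all genes tested of 0.01 and -0.01. The response was smaller in shFoxA1 for 25 of the 38, where it was smaller for 5972 of the 12371 genes tested. Of the 38 members, 11 were kept, 6 lost and 2 gained.

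Kept genes with large increases in shFoxA1, chosen by that increase, are given first. TENM1, TUBA3E and AZGP1, given further on, were kept with larger increases than TRPM8 and CENPN. NDRG1, a gene of the stress and differentiation response, had a log2 intensity of 12.58 with R1881 and 9.44 without in shFoxA1 cells, against 10.49 and 8.14 in shCtrl cells, which is 8.79-fold and 5.09-fold higher with R1881. FKBP5 was at 11.26 and 8.47 in shFoxA1 cells, against 10.39 and 8.19 in shCtrl cells, or 6.90-fold and 4.58-fold. EAF2, an elongation factor partner also known as an androgen-regulated gene, was at 8.66 and 5.91 in shFoxA1 cells, against 8.01 and 6.03 in shCtrl cells. For these 3 genes the shFoxA1 R1881 array was the highest of the 4. TRPM8, a cold-sensing ion channel of prostate epithelium, was at 8.98 and 6.80 in shFoxA1 cells and at 7.24 and 5.23 in shCtrl cells, so that its level was higher in shFoxA1 in both media while its responses were 2.19 and 2.01. CENPN, a centromere protein, had responses of 2.05 and 1.57.

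TMPRSS2 and SLC45A3 kept a smaller response. TMPRSS2, the membrane serine protease whose promoter drives ERG in many prostate tumours, was at 11.64 and 10.01 in shFoxA1 cells, against 11.31 and 8.86 in shCtrl cells. Its response was 1.63 against 2.46, and its hormone-deprived level was the part that differed more between the lines. SLC45A3, or prostein, was at 8.61 and 7.15 in shFoxA1 cells, against 10.82 and 8.77 in shCtrl cells, so its response of 1.46 against 2.05 came at a lower level in both media. The numbered shFoxA1 arrays had SLC45A3 at 7.22 and 7.12, at the level of the hormone-deprived array, and with them averaged into the R1881 side its shFoxA1 response was 0.50.

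The kallikreins, secreted serine proteases of the prostate, were split. KLK3 was at 8.64 with R1881 and 7.71 without in shFoxA1 cells, against 7.71 and 5.51 in shCtrl cells. Without R1881 the shFoxA1 level was thus about the shCtrl level with it, the numbered shFoxA1 replicates were at 8.56 and 8.85, and the response was 1.91-fold in shFoxA1 against 4.59-fold in shCtrl. KLK2 was at 7.78 and 6.55 in shFoxA1 cells, against 6.69 and 5.00 in shCtrl cells, 2.34-fold higher with R1881 in shFoxA1. In shCtrl cells KLK2 was undetected without R1881. KLK4 was at 11.56 and 11.50 in shFoxA1 cells, against 11.49 and 10.26 in shCtrl cells: its lost response, 0.06 against 1.24, lay in a hormone-deprived level as high as that with R1881. Of 15 tested kallikreins and secretory proteins, 5 were at least 2-fold higher and 2 lower in shFoxA1, against 7 and 1 in shCtrl. Among the other secretory members, AZGP1 (zinc-alpha-2-glycoprotein) had responses of 2.29 and 1.05, PGC (pepsinogen C) of 1.86 and 1.23, MSMB (the seminal plasma protein beta-microseminoprotein) of -0.03 and 1.03, and ACP3 (prostatic acid phosphatase) of -1.42 and -0.73. The 2 lower members in shFoxA1 were ACP3 and SERPINI1.

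**Figure D2:**
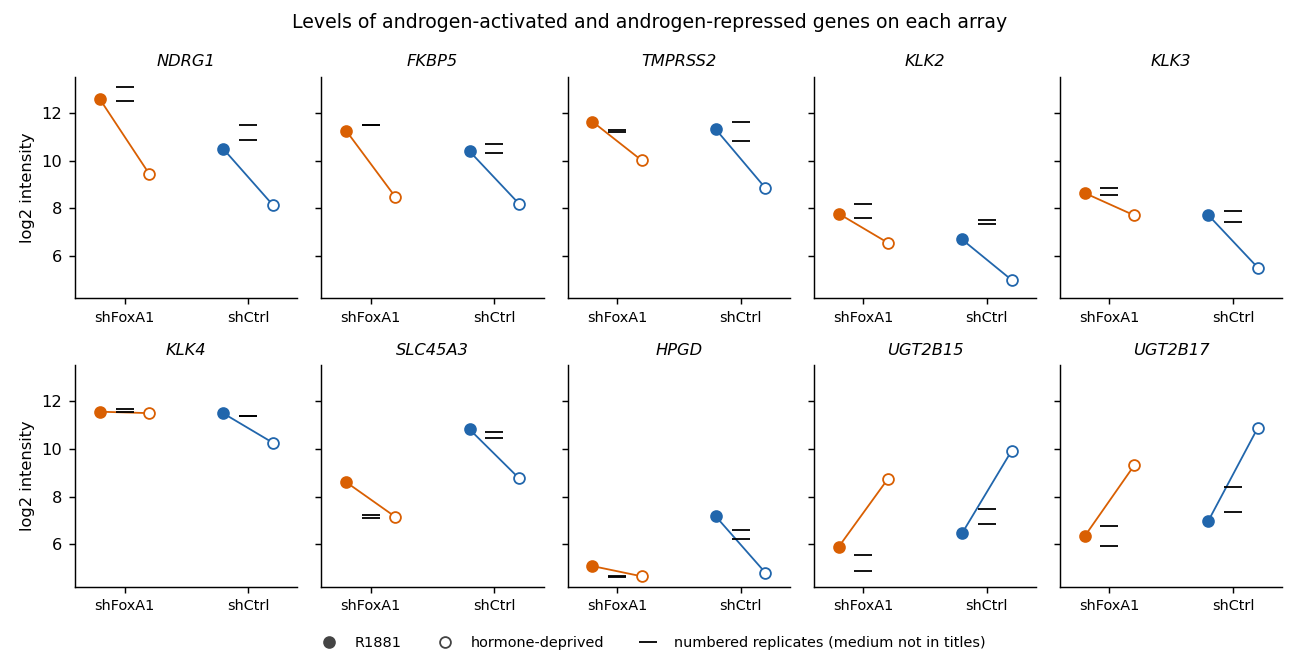
Log2 intensity of 10 genes in shFoxA1 (left) and shCtrl (right), with R1881 (filled) and hormone-deprived (open) arrays joined by a line and the numbered replicates as dashes. NDRG1 and FKBP5 have the steeper line in shFoxA1, KLK4 is level at 11.56 and 11.50 in shFoxA1, and UGT2B15 and UGT2B17 are lower with R1881 in both lines.

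Androgen-repressed genes were lower with R1881 in both lines. Of 15 tested members, 10 were at least 2-fold lower and 0 higher in shFoxA1, against 8 lower and 0 higher in shCtrl, with medians of -1.46 and -1.04, and 8 were kept. UGT2B17 was at 6.34 with R1881 and 9.31 without in shFoxA1 cells, against 6.98 and 10.88 in shCtrl cells. UGT2B15, whose promoter is shown above, was at 5.88 and 8.75 in shFoxA1 cells, against 6.46 and 9.91 in shCtrl cells. UGT2B11 and UGT2B10 had responses of -1.47 and -1.22 in shFoxA1, against -2.02 and -2.02 in shCtrl. Each of the 4 enzymes was lower in shFoxA1 than in shCtrl in both media, and each response was smaller in size in shFoxA1. Not all of the family fell: UGT2B28 had responses of -0.16 in shFoxA1 and -0.51 in shCtrl. UGT2B7, near the detection limit, had responses of 0.16 and 0.31. The UGT2B genes are near-identical in places, so their probes may read more than one of them, and a second UGT2B11 probe gave smaller responses, -0.19 in shFoxA1 and -0.70 in shCtrl.

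Of the other repressed genes, the 5 named next had the larger response in shFoxA1. BCHE, butyrylcholinesterase, was at 5.72 and 8.03 in shFoxA1 cells, against 8.03 and 9.03 in shCtrl cells, the lowest value being that of the shFoxA1 R1881 array. ACKR3, a decoy receptor for the chemokine CXCL12, was at 8.68 and 10.87 in shFoxA1 cells, against 8.57 and 10.39 in shCtrl cells. OPRK1, the kappa opioid receptor, had responses of -2.07 and -1.40, with its shFoxA1 R1881 array undetected, which makes it at least 4.16-fold lower there. SESN3 (sestrin 3) had responses of -1.49 and -0.73, and PRUNE2 of -1.52 and -1.12. Among the members under 2-fold, FOLH1, prostate-specific membrane antigen, had responses of -0.53 and 0.57.

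The largest shFoxA1 increases outside the androgen and secretory lists included genes under 2-fold in shCtrl. HES6, a transcriptional cofactor of the HES family, was at 12.19 and 9.11 in shFoxA1 cells, against 11.33 and 10.45 in shCtrl cells, 8.48-fold and 1.85-fold higher with R1881. SLC26A3, an intestinal chloride and bicarbonate exchanger, was at 7.65 with R1881 in shFoxA1 and undetected without, at least 5.68-fold higher. The numbered shFoxA1 arrays put SLC26A3 at 9.54 and 7.69, a gap of 1.85, and the numbered shCtrl arrays at 4.46 and 4.59. PGLYRP2, a peptidoglycan-degrading enzyme, was at 7.96 with R1881 in shFoxA1, at least 7.05-fold above the detection limit of the array without it, and was not detected on either shCtrl array. TENM1 (teneurin 1) and TUBA3E (an alpha tubulin) were kept, with responses of 2.63 and 2.54 in shFoxA1, against 2.14 and 1.71 in shCtrl.

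Among all genes lower with R1881 in shFoxA1, AOC1, the diamine oxidase that degrades histamine, had the largest difference. It had a log2 intensity of 8.46 on the shFoxA1 hormone-deprived array and was undetected on the shFoxA1 R1881 array, at least 10.1-fold lower. Its values on the numbered arrays were 4.69 and 4.55 in shFoxA1 and 4.46 and 4.43 in shCtrl, so 1 array of the 8 carries this difference. DDC, the DOPA decarboxylase, was at 5.98 and 9.35 in shFoxA1 cells, against 9.27 and 11.35 in shCtrl cells. CYP1A2 (a liver cytochrome P450) had responses of -3.12 and -1.75, SERPINI1 (neuroserpin, a member of the secretory list) of -2.96 and -1.77, PLA2G2A (a secreted phospholipase) of -2.87 and -1.18, and HOXA11-AS (an antisense RNA) of -2.62 and -1.08. These 4 were kept, each with a larger response in shFoxA1 than in shCtrl. They were chosen by the size of their shFoxA1 decrease, and that choice itself favours a larger response in shFoxA1. For HOXA11-AS the sources used here do not give the strand that its probe reads.

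The lost responses that were higher with R1881 in shCtrl lay mostly in the R1881 level. With a difference of 1.5-fold, chosen after the values were seen, 77 of the 97 genes had a lower R1881 level in shFoxA1 than in shCtrl, 11 had a higher hormone-deprived level, and 10 had neither. The median level difference without R1881 was 0.10. At any size, the R1881 level was lower in shFoxA1 for 91 of the 97 (93.8%), beside 50.6% of all genes tested. The sorting used these same 4 arrays and so itself favours such differences, and the share of all genes past the 1.5-fold cut was not counted. TARP, a transcript of the T-cell receptor gamma locus that prostate cells express, was at 6.28 and 5.75 in shFoxA1 cells, against 9.46 and 5.42 in shCtrl cells. HPGD, which inactivates prostaglandins, was at 5.09 and 4.66 in shFoxA1 cells, both undetected, against 7.17 and 4.81 in shCtrl cells. ELOVL7, a fatty acid elongase, was at 7.89 and 7.32 in shFoxA1 cells, against 9.01 and 6.57 in shCtrl cells. In each the shCtrl R1881 array was the highest of the 4. ELL2, an elongation factor, was otherwise: at 8.59 and 8.03 in shFoxA1 cells and 8.66 and 6.74 in shCtrl cells, the R1881 levels were close and the hormone-deprived level was higher in shFoxA1. UAP1, an enzyme of UDP-N-acetylglucosamine synthesis, had responses of 0.51 and 1.65.

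Of the 61 genes gained higher with R1881, 52 had an R1881 level at least 1.5-fold higher in shFoxA1 than in shCtrl. At any size it was higher for 59 of the 61, beside 6083 of the 12371 genes tested. Undetected on both shCtrl arrays were 13 of the 61, and the share of all genes so undetected was not counted. Here too the sorting used the same arrays and so itself favours such differences, and the share of all genes past the 1.5-fold cut was not counted. KRT6C, a keratin of stratified epithelium, was at 7.09 with R1881 in shFoxA1, at least 3.86-fold above the detection limit without it. SOX9, a transcription factor of ductal and progenitor cells, was at 6.92 and 5.19 in shFoxA1 cells, against 5.15 and 5.39 in shCtrl cells. RGS4, a regulator of G-protein signalling, was at least 2.58-fold higher in shFoxA1. GNMT, glycine N-methyltransferase, was at 7.50 and 5.30 in shFoxA1 cells, against 6.90 and 6.74 in shCtrl cells. The hormone-deprived level of GNMT differed by -1.44 between shFoxA1 and shCtrl, further than that of the other 3. Its numbered shFoxA1 arrays, at 4.74 and 7.03, were further apart than its response.

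The numbered arrays, which the sorting did not use, can be set beside these levels. Over all genes tested, both numbered shFoxA1 arrays were above both shCtrl arrays for 27.8% and below both for 29.1%. Of the 52 genes gained higher with R1881 that had a higher R1881 level, 44 (84.6%) were above and 2 (3.85%) below. Of the 77 genes lost higher that had a lower R1881 level, 37 (48.1%) were below and 15 (19.5%) above. Of the 22 genes lost lower that had a higher R1881 level, 18 (81.8%) were above and 0 below. Those groups were picked by their R1881 level. Over the whole classes, 48 of the 61 gained higher (78.7%) were above and 3 (4.92%) below. The 97 lost higher had 45 (46.4%) below and 18 (18.6%) above, and the 36 lost lower had 20 (55.6%) above and 5 (13.9%) below. Among the 42 genes kept higher, 23 (54.8%) were above and 9 (21.4%) below. Of the 73 genes kept lower, 29 (39.7%) were above and 20 (27.4%) below. Of the 60 genes gained lower, 22 (36.7%) were above and 12 (20%) below. Yet 47 of them (78.3%) had a lower R1881 level in shFoxA1, beside 50.6% of all genes tested. For that class the numbered arrays thus did not follow the R1881 level. The medium of the numbered arrays is not named, and no test of these shares was made.

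**Figure D3:**
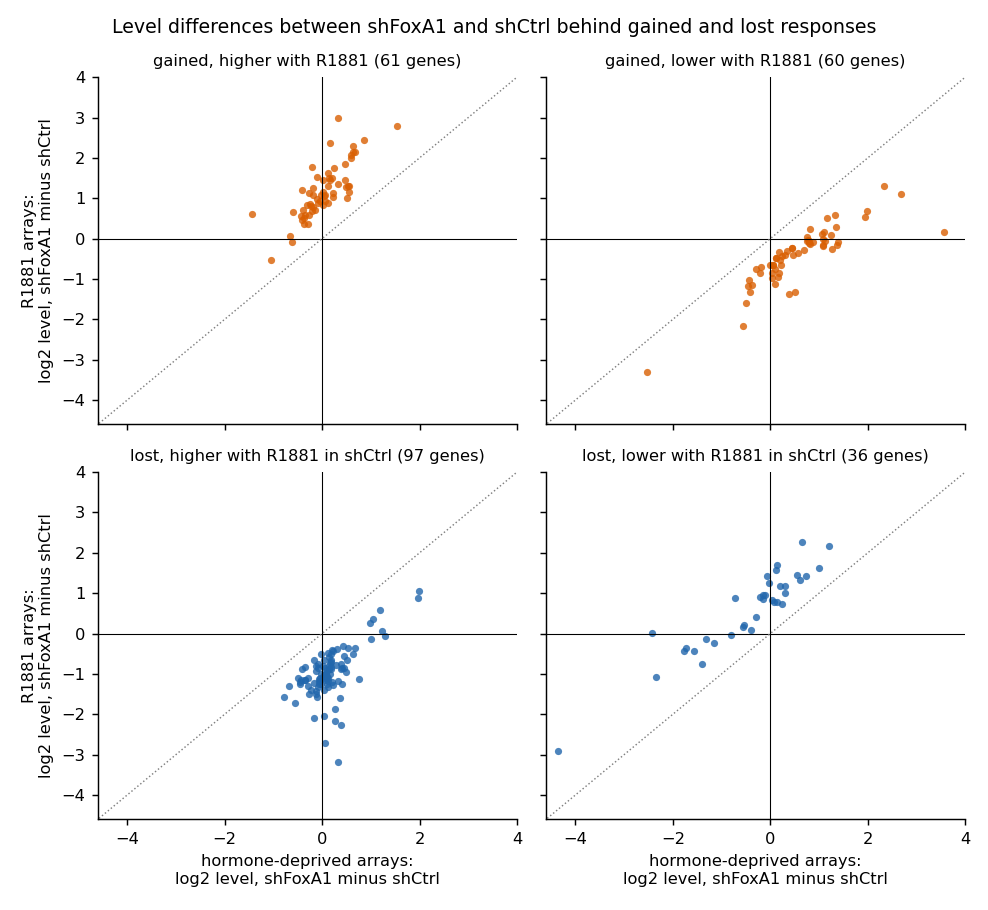
Log2 level difference, shFoxA1 minus shCtrl, on the hormone-deprived arrays (horizontal) and the R1881 arrays (vertical) for the 4 classes of gained and lost responses, with equality dotted. Of 61 gained genes higher with R1881, 52 sit above 0 by at least 1.5-fold on the vertical axis, and of 97 lost ones 77 sit below it by as much, with horizontal positions spread around 0.

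Responses lower with R1881 in shCtrl and lost in shFoxA1 included immediate early genes and ID genes. EGR1, an immediate early zinc finger factor, was at 5.74 and 5.52 in shFoxA1 cells, against 5.72 and 7.96 in shCtrl cells. The shCtrl hormone-deprived array alone was high for EGR1 among these 4. On the numbered arrays EGR1 was at 7.59 and 6.27 in shFoxA1 and at 5.83 and 5.87 in shCtrl. ID1 was at 8.98 and 9.17 in shFoxA1 cells, against 7.41 and 9.05 in shCtrl cells. ID2 was at 10.28 and 9.99 in shFoxA1 cells, against 8.02 and 9.33 in shCtrl cells. For ID1 and ID2, inhibitors of basic helix-loop-helix factors, the shCtrl R1881 array was the low one. Numbered replicates were 1.13 apart in shFoxA1 and 0.07 in shCtrl for ID1, and 0.36 and 1.02 apart for ID2. FOS was undetected on both shFoxA1 arrays and had a response of -1.72 in shCtrl, where its numbered replicates, at 4.77 and 9.17, were further apart than that.

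As lists, 17 tested immediate early genes had 0 members at least 2-fold higher and 1 lower in shFoxA1 (median 0.06), against 0 and 4 in shCtrl (median -0.43). The member lower in shFoxA1 was NR4A2, a nuclear receptor induced by many stimuli, with responses of -1.34 and -0.89. The median gap between numbered replicates for these 17 was 0.57 in shFoxA1 and 0.60 in shCtrl, larger than either median response. FOSB, with a response of -1.13 in shCtrl, had numbered shCtrl arrays at 4.65 and 6.61, further apart than that. The 12 TGF-beta and ID genes had 0 and 0 in shFoxA1 (median 0.05), against 0 and 3 in shCtrl (median -0.30). Their median gap between numbered replicates was 0.44 in shFoxA1 and 0.13 in shCtrl. The level was higher in shFoxA1 for 11 of these 12 with R1881 and for 9 of 12 without it, where it was higher for 6083 and 5784 of the 12371 genes tested. ID3 had responses of -0.88 and -2.23.

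Cell-cycle genes differed between the lines in level and in response. Of 31 G2/M and mitosis genes, 0 were at least 2-fold higher in shFoxA1 and 3 in shCtrl, with medians of 0.07 and 0.54, and the response was smaller in shFoxA1 for 28. All 31 had a lower level in shFoxA1 than in shCtrl with R1881 and also without it, by medians of -0.95 and -0.47, where 50.6% and 52.8% of all genes tested were lower. The median gap between numbered replicates for these 31 was 1.36 in shFoxA1 and 0.50 in shCtrl, against 0.22 and 0.19 over all genes tested. These median responses and level differences were thus smaller than the median gap between the numbered shFoxA1 replicates. Both numbered shFoxA1 arrays were nonetheless below both numbered shCtrl arrays for all 31, beside 29.1% of all genes tested. TTK, a spindle checkpoint kinase, was at 6.76 and 6.63 in shFoxA1 cells, against 8.05 and 6.92 in shCtrl cells. BUB1, another checkpoint kinase, was at 6.65 and 6.35 in shFoxA1 cells, against 7.80 and 6.70 in shCtrl cells. KIF23, a kinesin of cytokinesis, had responses of 0.67 and 1.03.

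The 29 tested G1/S and DNA replication genes had 2 members at least 2-fold higher and 0 lower in shFoxA1, against 3 and 0 in shCtrl, with medians of 0.39 and 0.59, and 28 of 29 had a response above 0 in each line. By the 2-fold rule 0 were kept, 3 lost and 1 gained. Their levels were lower in shFoxA1 for 28 of 29 in each medium. The median gap between numbered replicates for these 29 was 0.88 in shFoxA1 and 0.32 in shCtrl, and the shFoxA1 gap exceeded both median responses. Both numbered shFoxA1 arrays were below both numbered shCtrl arrays for 27 of the 29, beside 29.1% of all genes tested. GINS3, a subunit of the replicative helicase complex, had responses of 1.09 and 0.66, and GINS4 of 0.53 and 1.33. CCNE1 (cyclin E1) had responses of 1.00 and 0.47, with another probe under 1.5-fold. With the numbered arrays averaged into the R1881 side, the shFoxA1 medians were -0.01 for G1/S and -0.55 for G2/M.

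The CDK inhibitors were mixed. CDKN1A (p21) was at 12.09 and 12.31 in shFoxA1 cells, against 10.91 and 12.10 in shCtrl cells. Its shCtrl R1881 array alone was low among the 4. CDKN2B (p15) was at 8.17 and 7.12 in shFoxA1 cells, against 5.38 and 5.58 in shCtrl cells. CDKN2B was thus higher in shFoxA1 than in shCtrl in both media, with responses of 1.05 and -0.20.

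**Figure D4:**
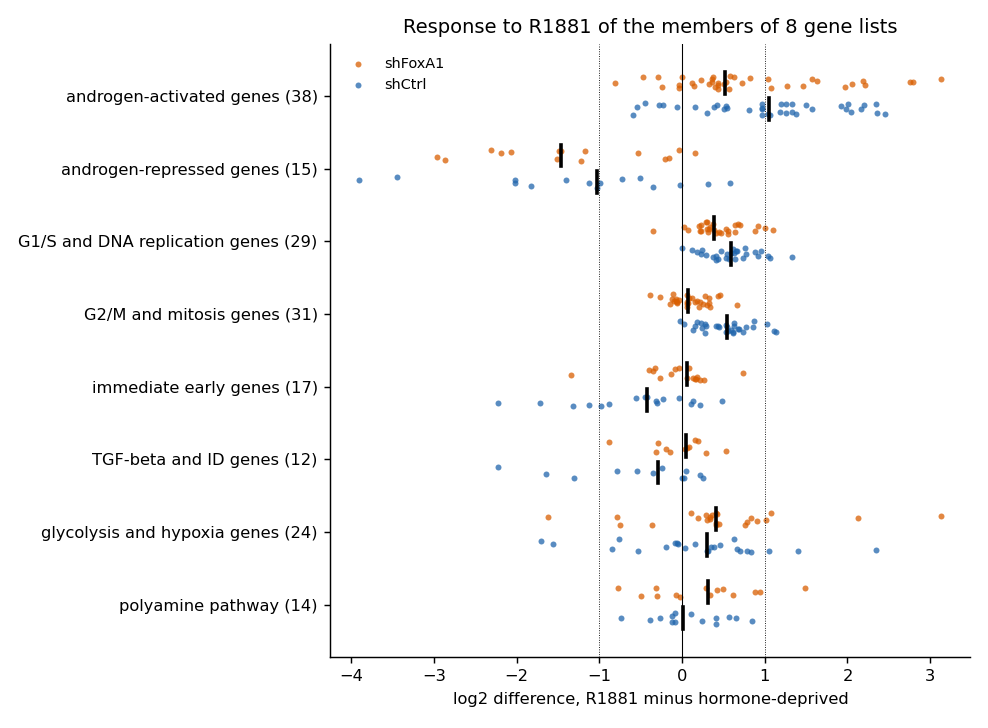
Log2 difference, R1881 minus hormone-deprived, of each tested member of 8 gene lists in shFoxA1 (upper row of each list) and shCtrl (lower row), with the median as a bar and 2-fold dotted. The G2/M median is 0.07 in shFoxA1 and 0.54 in shCtrl, and the androgen-repressed median is -1.46 and -1.04.

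Metabolic lists gave smaller differences. The 24 glycolysis and hypoxia members included 4 higher by 2-fold or more and 1 lower in shFoxA1, against 3 and 2 in shCtrl, with medians of 0.41 and 0.31. SLC2A3, a glucose transporter, was undetected without R1881 in both lines and at least 2.68-fold higher with it in shFoxA1. HK2 (hexokinase 2) had responses of 1.08 and 1.40, SLC2A1 (glucose transporter 1) of 1.02 and 0.70, and CA12 (carbonic anhydrase 12) of -1.62 and -1.56. Among 14 polyamine genes, ODC1, the first enzyme of polyamine synthesis, was at 12.06 and 10.57 in shFoxA1 cells, against 11.40 and 11.16 in shCtrl cells. It was the 1 member at least 2-fold higher in shFoxA1, and shCtrl had 0. The list medians were 0.32 and 0.01.

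Of 31 sterol and fatty acid genes, 2 were at least 2-fold higher in shFoxA1 and 2 higher and 1 lower in shCtrl, with medians of 0.08 and 0.05. The 2 were the desaturases FADS2, with responses of 1.44 and 0.46, and FADS1, with 1.02 and 0.30. ELOVL5, an elongase, had responses of 0.95 and 1.75, and INSIG2, a brake on sterol synthesis, of -0.96 and -1.09. FASN, fatty acid synthase, had responses of 0.49 and -0.35. The unfolded protein and integrated stress list had 0 of 26 members at 2-fold in either line, with medians of 0.27 and 0.23, and the interferon list 0 of 19.

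Other members of the lists gave single responses. SPDEF, a prostate epithelial ETS factor, had responses of 1.02 and 1.52, and NRIP1, a nuclear receptor corepressor, was at 7.52 and 8.52 in shFoxA1 cells, against 8.67 and 8.89 in shCtrl cells. ACTA2 (smooth muscle actin) had responses of 1.43 and -0.17, but its numbered shCtrl arrays, at 6.43 and 9.12, were further apart than either. SERPINA3 (antichymotrypsin) had responses of 1.42 and -0.10, with numbered shFoxA1 arrays at 11.17 and 9.50. IGFBP3, a binding protein of insulin-like growth factors, had responses of -1.39 and -1.84, and its numbered shFoxA1 arrays, at 12.71 and 9.63, were both above its hormone-deprived value of 9.02. ST6GALNAC1, a sialyltransferase, was kept with responses of 1.98 and 2.05, at least 3.45-fold in shFoxA1 and at least 3.43-fold in shCtrl.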

How the data were processed

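Total RNA was hybridized to Illumina bead arrays. Values were made in GenomeStudio, per the submitters' processing notes. For the 8 LNCaP shRNA arrays, the deposited table held background-subtracted probe intensity, not normalized between arrays, and a detection p-value per probe, per the file headers. A deposited matrix of normalized intensity was used only as an alternative, and the tables of other lines were not used here. The probe columns of the table matched the matrix columns of the same samples in rank.

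In R 4.3.3 with limma 3.58.1, limma's nec function corrected background by normexp (offset 16), with the background's mean and spread taken from the detection p-values, and log2 values of the 8 arrays were then quantile normalized together, steps also checked on simulated data. Of 47316 probes, 30109 carried 1 gene symbol in the platform annotation. A gene was read by its probe with the highest mean over the 8 arrays. Where the dimmer array was undetected, "at least" folds were taken against its detection limit (log2 5.07 to 5.14). With 1 array a side there was no test, and the gaps between numbered replicates served as the yardstick. Of 473 list members, 31 had no named probe.

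The comparison, its gene lists and its rules were chosen with earlier results of these data known. Named genes are main androgen targets, the 8 largest shFoxA1 differences each way, up to 6 genes of each class by the difference between responses and up to 6 members of each list. HPGD, ELL2 and others outside that rule were picked after their values were seen. Promoter sequences are from RefSeq (GRCh38.p14), in which UGT2B17, TMPRSS2 and NDRG1 have 0 entries here.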

Additional observations from a re-analysis of the deposited data

Results flagged for a closer look

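For PIP, the prolactin-induced protein, the 2 lines moved in opposite directions. Its log2 intensity was 8.66 with R1881 and 7.32 without in shFoxA1 cells, against 5.98 and 6.64 in shCtrl cells, so the response was 1.35 in shFoxA1 and -0.67 in shCtrl. Its numbered shFoxA1 replicates were at 12.89 and 10.19, a gap of 2.70 that exceeds the response. The difference between the 2 responses was not tested.

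TRIM49C, a tripartite-motif gene with near-identical relatives, also moved in opposite directions. It was at 6.10 with R1881 and 7.28 without in shFoxA1 cells, against 7.52 and 6.23 in shCtrl cells, a response of -1.18 in shFoxA1 and 1.29 in shCtrl. Its numbered replicates were 0.03 apart in shFoxA1 and 0.42 apart in shCtrl, and another TRIM49C probe differed by under 1.5-fold. This difference was not tested either.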

How the results depend on the processing

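The counts depended on the background correction, the scaling, the fold and the use of the numbered arrays. In the order shFoxA1 higher and lower, shCtrl higher and lower, the main counts of 140, 197, 169 and 156 became 82, 99, 93 and 91 with an offset of 50, 310, 401, 281 and 274 with no correction beyond the deposited subtraction, and 262, 351, 282 and 281 in the deposited matrix. With the numbered arrays averaged into the R1881 side, shFoxA1 had 243 higher and shCtrl 314 lower. Under median scaling shCtrl had 682 higher.

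Kept genes, main 42 higher and 73 lower, numbered 80 and 46 under median scaling, 23 and 42 with an offset of 50, 66 and 136 with no correction, 66 and 126 in the matrix, 9 and 13 at 3-fold and 197 and 304 at 1.5-fold. With the numbered arrays added, 147 were kept lower. Lost genes, main 97 higher and 36 lower, numbered 16 and 8 at 3-fold, 316 and 227 at 1.5-fold and 56 and 90 with the numbered arrays added. The lost higher genes numbered 460 under median scaling, 146 under cyclic loess and 58 with an offset of 50, and the lost lower ones 83 with no correction and 91 in the matrix. Gained genes, main 61 higher and 60 lower, numbered 33 and 23 with an offset of 50, 169 and 168 with no correction, 130 and 136 in the matrix, 12 and 4 at 3-fold and 299 and 252 at 1.5-fold. Gained higher genes numbered 34 under median scaling and 124 with the numbered arrays added. The 1 opposite gene became 0 with the mean over probes, an offset of 50 and 3-fold, 5 with no correction, 4 in the matrix, 3 with the numbered arrays added and 7 at 1.5-fold. The cause of these moves was not tested, apart from the folds, whose counts differ by construction.

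Of 617 values of the 63 named genes at least 2-fold in shFoxA1, 581 stayed at 2-fold and 2 reversed. Both reversed with the numbered arrays added, IGFBP3 at 0.97 and the ribosomal RNA gene RNA28SN5 at -0.92, against -1.39 and 1.23 in the main values. RNA28SN5 was at 10.39 with R1881 and 9.16 without in shFoxA1 cells, against 8.09 and 8.53 in shCtrl cells, and its part in other differences was not tested. Of 498 list medians, 447 moved by less than the SD between numbered replicates. Signal over background limits the low genes: 51 of the 337 shFoxA1 responses had an undetected dimmer array. Leaving out a replicate was not run, since each side had 1 array. No paired analysis was possible because the R1881 and hormone-deprived groups hold 1 array each and share fewer than 2 replicate numbers.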

Other observations

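Of the genes below, DAPK1, GCLC and BROX came from the rule for named genes, and others were picked after their values were seen. TRIM48, a tripartite-motif gene with near-identical relatives, was at 6.40 with R1881 and 5.93 without in shFoxA1 cells, against 7.99 and 5.55 in shCtrl cells. TRIM51 was at 8.18 and 8.91 in shFoxA1 cells, against 9.93 and 7.88 in shCtrl cells. TRIM49D1 and TRIM49D2 had responses of 0.55 and 0.11 in shFoxA1, against 2.97 and 2.88 in shCtrl. On the numbered arrays these 4 were lower in shFoxA1 than in shCtrl, TRIM48 at 5.47 and 5.26 against 7.18 and 7.50 and TRIM51 at 6.17 and 5.90 against 8.46 and 8.80. TRIM49 had responses of -1.39 in shFoxA1 and -0.45 in shCtrl. Probes of these genes may read one another's transcripts.

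The alcohol dehydrogenases ADH1A and ADH1C, which act on ethanol and retinol, were undetected on both shFoxA1 arrays. ADH1A was at 6.71 with R1881 and 5.00 without in shCtrl cells, at least 3.12-fold higher with R1881, and ADH1C was at 6.16 and 4.68, at least 2.13-fold higher. On the numbered arrays ADH1A was at 5.24 and 4.84 in shFoxA1, against 6.65 and 6.04 in shCtrl.

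Among genes that were lower with R1881 and gained in shFoxA1, 27 of 60 had a higher hormone-deprived level in shFoxA1 than in shCtrl and 22 a lower R1881 level. These levels are from the arrays used for the sorting, and the share of all genes past the 1.5-fold cut was not counted. DAPK1, a death-associated kinase, was at 6.30 and 7.89 in shFoxA1 cells, against 5.20 and 5.21 in shCtrl cells. GCLC, the catalytic subunit of the first enzyme of glutathione synthesis, was at 7.10 and 8.49 in shFoxA1 cells, against 7.25 and 7.11 in shCtrl cells. BROX, a protein with a BRO1 domain, was at 6.04 and 7.77 in shFoxA1 cells, against 7.35 and 7.26 in shCtrl cells. DAPK1 was higher in shFoxA1 in both media, GCLC only without R1881, and BROX was lower in shFoxA1 only with R1881.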
